A study of Mus musculus with 25 samples.

Results

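The Ifitm genes encode small interferon-induced membrane proteins, and 4 of them, Ifitm1, Ifitm2, Ifitm3 and Ifitm6, were followed in CD11b+ cells sorted from mouse kidneys. They are 4 of the 18194 genes that had a probe set annotated to 1 gene, and all 4 were among the 8341 genes tested, those with calls of present on 2 or more arrays of some group. Each was to be read from its probe set of highest mean log2 value over 21 arrays, but every Ifitm gene had only 1 probe set, so that step chose nothing. The family itself was selected on measured values of these data, the low Ifitm1 level on the arrays labelled sham High beside the other sham gates. The levels in the 3 sham gates are therefore given as a description, with no test between them. Every test of Ifitm1 against a sham gate uses values of that selection and is not independent of it.

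IFITM proteins sit in the plasma membrane and in the membranes of endosomes and lysosomes, where they hinder the fusion of enveloped viruses with the cell. Interferons induce several of them through STAT and IRF transcription factors, while some cells of the immune system carry them without infection. IFITM3 is best known for limiting influenza virus entry from late endosomes, IFITM1 is found largely at the cell surface, and IFITM2 is a close relative of IFITM3. Less is known of mouse Ifitm6.

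The mice were C57BL/6 males of 8 to 10 weeks, which had 28 min of ischemia of both kidneys or sham surgery without clamping, and all were given saline and buprenorphine. The groups after ischemia were 4 h High, 4 h Intermediate, 24 h Intermediate, 9 day Intermediate and 9 day Low, with 3 arrays each, named by the time of reperfusion and the Ly6C gate. The sham groups were sham High, sham Intermediate and sham Low, with 2 arrays each, and the labels give no time for them. A further 3 arrays of sham 58 High share 1 label, so it is not known if they are different animals, and they are given as single values. Gates with the same animal number come from the same animal, and each array is 1 animal and gate. RNA was amplified with a kit for picogram amounts before hybridisation to an Affymetrix array, and values are the deposited log2 values unless stated. The cells were sorted and measured in bulk, so fewer cells of a type and less RNA per cell cannot be told apart.

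The share of probe sets called present was 1.99% on sham High replicate 1, 3.29% on 9 day Intermediate replicate 8 and 4.67% on 9 day Intermediate replicate 13, against 10.1% to 40.0% on the other 18 arrays. Results that rest on these 3 arrays are given with and without them. In sham animal 1 the Ly6C probe set went against the gate labels, at 2.83, called absent, in High, the array of lowest yield, 11.66 in Intermediate and 12.57 in Low. In sham animal 2 it read 12.03 in High, 10.26 in Intermediate and 10.37 in Low. It was called absent on 9 day Intermediate replicates 8 and 13. The labelled cell type is macrophage. Csf1r, the receptor for macrophage growth factor, was called present on 20 of 21 arrays, and Cd68, a macrophage lysosome protein, on 18. Itgam, which encodes CD11b, was called present on 11 arrays, at 5.52 or less. Neutrophil markers were called present in every group: 11 were on the array, and between 3 and 11 of them were called on each array.

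All 4 genes lie on chromosome 7 within 62.1 kb in the GRCm38.p6 assembly of RefSeq. Ifitm2 covers chr7:140954837-140959686, Ifitm1 chr7:140967429-140969827, Ifitm3 chr7:141009590-141010744 and Ifitm6 chr7:141015812-141016892. The 4 promoters are shown because the family is known as interferon-induced. RefSeq windows of 300 bases, 250 before and 50 after the start of transcription, were matched for all 4 and searched on both strands for 3 motifs. The core of the interferon-stimulated response element, GAAANNGAAA, occurs in 3.44% of 32851 RefSeq windows. The gamma-activated site TTCNNNGAA occurs in 8.30% and the TATA box TATAAA in 13.6%. The lines give 120 bases before and 30 after the start, 5′ to 3′, with motif matches in capitals. The stretch of Ifitm1 is chr7:140967956-140968105 on the plus strand. Those of Ifitm2, chr7:140955932-140956081, of Ifitm3, chr7:141010715-141010864, and of Ifitm6, chr7:141016863-141017012, are on the minus strand. The stretches of Ifitm1 and Ifitm2 lie wholly inside the gene spans given above. For these genes the 5′ end of the span was not searched.
Ifitm1: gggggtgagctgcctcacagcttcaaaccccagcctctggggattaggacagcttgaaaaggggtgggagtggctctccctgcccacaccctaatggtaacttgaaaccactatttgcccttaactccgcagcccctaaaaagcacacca
Ifitm2: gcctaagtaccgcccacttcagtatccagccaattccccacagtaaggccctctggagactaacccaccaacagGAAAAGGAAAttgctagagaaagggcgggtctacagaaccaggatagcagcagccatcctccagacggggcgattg
Ifitm3: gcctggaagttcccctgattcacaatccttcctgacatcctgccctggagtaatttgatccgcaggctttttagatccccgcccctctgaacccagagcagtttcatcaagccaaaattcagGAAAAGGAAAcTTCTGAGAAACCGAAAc
Ifitm6: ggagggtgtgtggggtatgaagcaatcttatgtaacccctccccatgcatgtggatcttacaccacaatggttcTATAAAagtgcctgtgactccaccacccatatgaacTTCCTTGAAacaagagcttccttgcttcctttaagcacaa

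The Ifitm2 window holds GAAAAGGAAA at bases -46 to -37, counted from the first transcribed base as 1. The Ifitm3 window holds GAAAAGGAAA at bases 3 to 12 and GAAACCGAAA at bases 20 to 29, both after the start. It also holds the gamma-activated site TTCTGAGAA at bases 14 to 22, which overlaps GAAACCGAAA. The Ifitm6 window holds the gamma-activated site TTCCTTGAA at bases -10 to -2 and the TATA box at bases -46 to -41. On the reverse strand the Ifitm2 window has a TATAAA match at bases -175 to -170, outside the printed stretch. The Ifitm1 window, at a start inside the gene span, holds none of the 3 motifs, and sequence outside this window was not searched. A match describes the letters only.

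Among the 21 arrays of the 8 groups, Ifitm1 was called present on 19, Ifitm2 on 20, Ifitm3 on 21 and Ifitm6 on 19. The calls of absent were on both sham High arrays for Ifitm1, on sham High replicate 1 for Ifitm2 and Ifitm6, and on 9 day Intermediate replicate 8 for Ifitm6. The other genes of the family with a probe set were near background. Ifitm5, known for its expression in bone-forming cells, was called present on 1 of 21 arrays, Ifitm10 on 1 and Ifitm7 on 0, so none of these was tested. Ifitm4 was not among the annotated genes. The 4 probe sets carry the suffix that the maker gives to sets designed for 1 transcript, and whether signals of close relatives such as Ifitm2 and Ifitm3 are fully separated was not tested. Each probe set is compared only with itself.

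**Figure D1:**
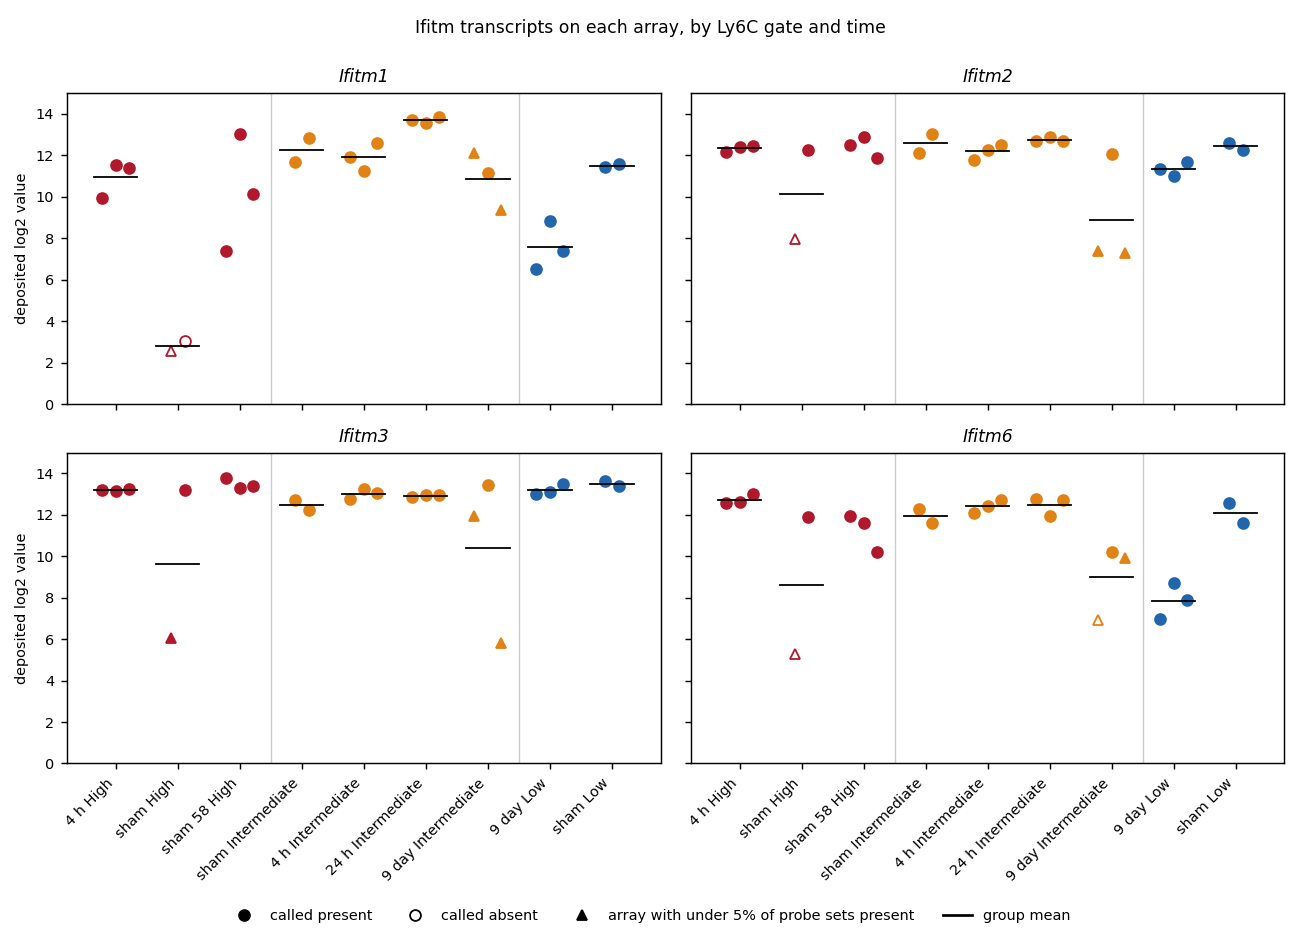
Deposited log2 value of each Ifitm gene (vertical axis, 4 panels) on every array, by gate and time (horizontal axis; red High, orange Intermediate, blue Low). Each point is 1 array, open symbols are calls of absent, triangles are the 3 arrays with under 5% of probe sets present, and lines are group means. Ifitm1 was called absent on both sham High arrays, and Ifitm1 and Ifitm6 lie lower in 9 day Low than in sham Low.

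Ifitm3 was high in every gate and at every time. On the 18 arrays with at least 5% of probe sets present it lay between 12.21 and 13.63, the narrowest range of the 4 genes. It averaged 13.19 ± 0.03 in 4 h High, 13.02 ± 0.23 in 4 h Intermediate, 12.92 ± 0.04 in 24 h Intermediate and 13.21 ± 0.26 in 9 day Low (SD, n = 3 each), against 13.50 ± 0.19 in sham Low and 12.47 ± 0.37 in sham Intermediate (SD, n = 2 each). In the order of these means, neighbours overlap, except that sham Intermediate lay below 24 h Intermediate on both arrays. The lower values, 6.06 on sham High replicate 1, 5.83 on 9 day Intermediate replicate 13 and 11.95 on 9 day Intermediate replicate 8, were all on arrays of low yield. The other array of sham High read 13.19 and that of 9 day Intermediate 13.46.

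Ifitm2 was similarly even, apart from the arrays of low yield and 9 day Low. On the 18 arrays of higher yield it lay between 11.01 and 13.05. Its highest group mean was 12.77 ± 0.12 in 24 h Intermediate (SD, n = 3), next to 12.58 ± 0.67 for sham Intermediate and 12.44 ± 0.23 for sham Low (SD, n = 2 each). Then came 12.34 ± 0.14 in 4 h High and 12.19 ± 0.37 in 4 h Intermediate (SD, n = 3 each). The values of neighbours in this order overlap. Its lowest mean without arrays of low yield was 11.35 ± 0.34 in 9 day Low (SD, n = 3). On the arrays of low yield it read 7.97 in sham High, called absent, and 7.37 and 7.29 in 9 day Intermediate.

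Ifitm6 fell into a high and a low set of groups. It averaged 12.73 ± 0.24 in 4 h High, 12.47 ± 0.46 in 24 h Intermediate and 12.41 ± 0.33 in 4 h Intermediate (SD, n = 3 each), against 12.08 ± 0.68 in sham Low and 11.94 ± 0.49 for sham Intermediate (SD, n = 2 each). The values of neighbours in this order overlap. It averaged 9.00 ± 1.82 in 9 day Intermediate and 7.86 ± 0.89 in 9 day Low (SD, n = 3 each), and both groups lay under every array of the 5 groups above. Sham High held 5.29, called absent, and 11.89.

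Ifitm1 had the widest range over 21 arrays, 2.55 to 13.87. Its lowest values were those of sham High, on which the family was selected. Outside sham High it lay between 6.52 and 13.87, and Ifitm3 between 5.83, on an array of low yield, and 13.63. Without the arrays of low yield, the range of Ifitm1 outside sham High still held those of the other members. The highest mean of Ifitm1 was 13.71 ± 0.15 in 24 h Intermediate (SD, n = 3), followed by 12.27 ± 0.81 in sham Intermediate (SD, n = 2) and 11.92 ± 0.69 in 4 h Intermediate (SD, n = 3). It averaged 11.50 ± 0.10 in sham Low (SD, n = 2), 10.96 ± 0.87 in 4 h High and 10.86 ± 1.40 in 9 day Intermediate (SD, n = 3 each). From sham Intermediate down to 9 day Intermediate, neighbours in this order overlap. Below them lay 7.59 ± 1.18 in 9 day Low (SD, n = 3), and lowest was 2.79 ± 0.34 in sham High (SD, n = 2), where it was not called present.

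In the Low gate, Ifitm1 and Ifitm6 lay lower at 9 days than in sham animals, while Ifitm3 read much the same. Ifitm1 read 6.52, 8.86 and 7.40 in 9 day Low replicates 8, 9 and 13, against 11.42 and 11.57 in sham Low. Every 9 day array lay below both sham arrays. The deposited linear signals of Ifitm1 were 353.1, 2622.5 and 976.6 in 9 day Low, against 13466.9 and 18694.2 in sham Low. Those signals are a separate summary of the same arrays and show the same separation.

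Ifitm6 read 6.95, 8.73 and 7.90 in 9 day Low replicates 8, 9 and 13, against 12.56 and 11.60 in sham Low. The groups did not overlap here either. Ifitm2 read 11.33, 11.01 and 11.70 in 9 day Low, against 12.60 and 12.28 in sham Low, again without overlap but with a narrower gap. Ifitm3 read 13.02, 13.11 and 13.51 in 9 day Low, against 13.63 and 13.37 in sham Low, and the groups overlapped. Thus 3 of 4 genes lay below sham on every array, where 18.5% of all tested genes did.

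In limma the difference of 9 day Low from sham Low was -3.90 ± 0.92 for Ifitm1 (log2 ± SE here and below), with adjusted p = 0.0506, just outside the threshold of 0.05. For Ifitm6 it was -4.22 ± 1.38, with adjusted p = 0.176. Lower differences than these were found for 3.37% and 2.77% of the tested genes. Ifitm2 differed by -1.09 ± 1.26, adjusted p = 0.958 in limma, and Ifitm3 by -0.29 ± 1.80, with 26.0% and 44.7% of genes lower. No member was called, while 0.995% of all genes were called in limma. An unadjusted limma p under 0.05 was found for 2 members and for 876 of the 8341 tested genes. The fit estimates 1 spread per gene from all groups, so the arrays of low yield in other groups enter these standard errors. Without those arrays the differences kept their size and both passed the threshold in limma. Ifitm1 lay at -3.90 ± 0.79 with adjusted p = 0.0225 and Ifitm6 at -4.22 ± 0.66 with adjusted p = 0.00529. Calls over all genes rose as well, to 206 without the arrays of low yield from 83 with them. The sham Low values of Ifitm1 were part of what the family was selected on, so its test here is not independent.

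Markers of other cells moved with this comparison. The summed linear level of the 11 neutrophil markers was 9127 to 11779 in 9 day Low, against 60785 to 61021 in sham Low, with 5 to 7 and 10 to 11 of them called present. Camp and Ltf, both granule proteins, were not called on any 9 day Low array. The sum of 6 classical monocyte markers was 5153 to 7347 in 9 day Low, against 8766 to 26122 in sham Low. The sum of 8 tissue macrophage markers was 39550 to 50220 in 9 day Low, against 16824 to 25144 in sham Low. The sum of 10 kidney tubule markers was 1409 to 2405 in 9 day Low, against 18971 to 20196 in sham Low. The Ly6C probe set read 4.32 to 5.25 in 9 day Low, against 10.37 and 12.57 in sham Low. The Gapdh 3′ to 5′ signal ratio, which rises when RNA is short or partly copied, was 10.7, 7.78 and 3.00 in 9 day Low, against 1.85 and 2.82 in sham Low. The part of these in the Ifitm values was not tested.

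In the Intermediate gate, Ifitm1 was highest at 24 h. It read 11.70 and 12.85 in sham animals, 11.91, 11.24 and 12.62 at 4 h, 13.69, 13.57 and 13.87 at 24 h, and 12.11, 11.13 and 9.35 at 9 days. All 24 h arrays lay above all others of the gate, and the 4 h arrays overlapped those of sham animals. In limma the difference of 24 h from 4 h was 1.78 ± 0.83, adjusted p = 0.671, and that of 24 h from sham was 1.44 ± 0.92, adjusted p = 0.726.

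At 24 h 0 of 4 members were called against 4 h, where 0.12% of all genes were, and 0 against sham, where 0.456% were. Unadjusted p values under 0.05 in limma numbered 1 and 0, against 603 and 803 of the 8341 tested genes. Ifitm1 and Ifitm2 lay above 4 h on every 24 h array, as did 6.65% of all genes. Ifitm1 and Ifitm3 lay above sham on every 24 h array, as did 10.7%. Ifitm2 read 12.11 and 13.05 in sham Intermediate, 11.79, 12.28 and 12.52 at 4 h, and 12.69, 12.91 and 12.69 at 24 h. Ifitm6 read 12.29 and 11.60 in sham Intermediate, 12.07, 12.43 and 12.73 at 4 h, and 12.75, 11.94 and 12.73 at 24 h. For both genes the 24 h and sham arrays overlapped.

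At 4 h the 4 genes lay close to sham Intermediate. The limma differences were -0.35 ± 0.92 for Ifitm1, -0.39 ± 1.26 for Ifitm2, 0.55 ± 1.80 for Ifitm3 and 0.47 ± 1.38 for Ifitm6, all with adjusted p = 0.999. No member was called or had an unadjusted p under 0.05, and 0.216% of all genes were called. Ifitm3 alone lay above sham on every array, at 12.78, 13.23 and 13.06 at 4 h, against 12.74 and 12.21 in sham Intermediate; 9.82% of all genes did so. All 4 differences were smaller than their standard errors.

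At 9 days the Intermediate values varied widely between arrays, of which replicates 8 and 13 were of low yield. Ifitm2 read 7.37, 12.05 and 7.29 on replicates 8, 9 and 13, Ifitm3 read 11.95, 13.46 and 5.83, and Ifitm6 read 6.91, called absent, 10.19 and 9.92. Replicate 9, the array with 25.5% of probe sets present, held the highest value of all 3 genes. For Ifitm1 the highest value was on replicate 8. Against 24 h Intermediate the limma differences were -2.84 ± 0.83 for Ifitm1 (adjusted p = 0.140), -3.86 ± 1.13 for Ifitm2 (0.144), -2.51 ± 1.61 for Ifitm3 (0.658) and -3.47 ± 1.24 for Ifitm6 (0.244). No member was called, where 0.384% of all genes were. In limma 3 members had an unadjusted p under 0.05, as did 962 of the 8341 tested genes.

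Ifitm1, Ifitm2 and Ifitm6 lay below 24 h on every 9 day array, as did 8.02% of all genes. Against sham Intermediate the differences were -1.41 ± 0.92, -3.68 ± 1.26, -2.06 ± 1.80 and -2.94 ± 1.38 for Ifitm1, Ifitm2, Ifitm3 and Ifitm6, with limma adjusted p of 0.584, 0.222, 0.699 and 0.392. None was called, where 0.683% of all genes were. In limma 2 members had an unadjusted p under 0.05, as did 1051 of the 8341 tested genes. Ifitm2 and Ifitm6 lay below sham on every array, as did 15.7% of all genes.

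Without the arrays of low yield only replicate 9 stands for 9 day Intermediate, and its spread is assumed to equal that of the other groups. Ifitm3 then lay 0.53 above 24 h, in place of -2.51, and Ifitm2 and Ifitm6 read 12.05 and 10.19. Other markers also moved in this gate. Kidney tubule sums were 35740 to 43225 in sham Intermediate, 17233 to 25979 at 4 h, 6219 to 10256 at 24 h and 219 to 1069 at 9 days. At 9 days 8 of the 10 tubule markers were not called on any array. Neutrophil sums were 76142 to 83123 in sham Intermediate, 68967 to 87653 at 4 h, 84683 to 91710 at 24 h and 37262 to 52803 at 9 days. Classical monocyte sums were 4915 to 9570 in sham Intermediate, 8455 to 23396 at 4 h, 14229 to 20398 at 24 h and 4596 to 14764 at 9 days. The 24 h arrays thus lay above the sham arrays in both the neutrophil and the classical monocyte sums, as they did for Ifitm1. In both sums they overlapped the 4 h arrays, which for Ifitm1 they did not. Tissue macrophage sums were 11382 to 17781 in sham Intermediate, 8596 to 12294 at 4 h, 7252 to 10775 at 24 h and 2428 to 33352 at 9 days. Their part in the Ifitm values was not tested.

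The Gapdh 3′ to 5′ ratio was 431 on sham Intermediate replicate 1, the highest of the 21 arrays, and 3.93 on replicate 2. It was 10.4, 10.5 and 6.81 at 4 h, 3.30, 10.00 and 5.09 at 24 h, and 0.923, 2.33 and 8.16 at 9 days. Without sham Intermediate replicate 1, which leaves 1 sham array, 24 h Intermediate minus sham was 0.86 for Ifitm1, -0.29 for Ifitm2, 0.72 for Ifitm3 and 0.87 for Ifitm6. The 4 h differences were -0.92, -0.86, 0.81 and 0.81 in the same order of genes, and the 9 day differences -1.98, -4.15, -1.80 and -2.59. The part of RNA quality in these values was not tested.

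In the High gate, Ifitm1 was called present on every 4 h array and on neither sham High array. It read 9.96, 11.52 and 11.40 in 4 h High replicates 30, 32 and 33, against 2.55 and 3.03 in sham High, both called absent. The linear signals of Ifitm1 were 4169.6, 24417.4 and 27555.8 in 4 h High, against 54.3 and 179.8 in sham High. The fitted level was 289-fold higher in 4 h High. A sham High value under the array's lowest value called present would have been lifted to it. That floor, 2.34 and 1.47, lay below the values of Ifitm1, so nothing was lifted. The 289-fold is thus the fitted estimate, and this floor gives no lower bound. Both sham High values also lay under the medians of their arrays, 3.56 and 3.36. The fold is therefore set against values called absent, and the true ratio was not measured. In limma the difference was 8.17 ± 0.92, adjusted p = 7.66e-04. These are the sham High arrays on which Ifitm1 had stood out, so the call is not independent of the choice of the gene.

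The other members differed by array. Ifitm6 read 12.58, 12.61 and 13.01 in 4 h High, against 5.29 and 11.89 in sham High, and the groups did not overlap. Ifitm2 read 12.18, 12.39 and 12.45 in 4 h High, against 7.97 and 12.28 in sham High. Ifitm3 read 13.19, 13.16 and 13.22 in 4 h High, against 6.06 and 13.19 in sham High. Each low value was that of sham High replicate 1, the array of lowest yield. On replicate 2 Ifitm2 and Ifitm3 lay inside the range of the 4 h arrays, and Ifitm6 lay below it.

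The limma differences were 2.21 ± 1.26 for Ifitm2, 3.56 ± 1.80 for Ifitm3 and 4.14 ± 1.38 for Ifitm6, with adjusted p of 0.447, 0.372 and 0.186. Thus 1 of 4 members, Ifitm1, was called, where 0.432% of all genes were. The family was selected on the sham High values of Ifitm1, so nothing is read from that count. Ifitm1 and Ifitm6 lay above sham on every array, as did 22.7% of all genes. Without the arrays of low yield the differences were 0.06, -0.00347 and 0.84 for Ifitm2, Ifitm3 and Ifitm6, and 7.93 for Ifitm1. These rest on 1 sham High array and are given as effect sizes only.

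The 3 sham 58 High arrays did not share the low Ifitm1 value of sham High. Ifitm1 read 7.41, 13.01 and 10.15 on sham 58 High, all called present. These run from a value inside the 9 day Low range to one above both sham Intermediate arrays. Ifitm2 read 12.51, 12.89 and 11.87, Ifitm3 13.77, 13.30 and 13.38, and Ifitm6 11.95, 11.58 and 10.20. With their mean added as a further sham High array, the difference of 4 h High was 5.71 ± 1.42 for Ifitm1, adjusted p = 0.305 in limma, and the call was lost. The sham 58 High arrays had 33.6%, 29.3% and 30.2% of probe sets present, against 1.99% and 12.9% in sham High. Their Gapdh 3′ to 5′ ratios were 1.98, 2.14 and 4.29, against 298 and 28.3. The Ly6C probe set read 12.94, 11.40 and 7.75 on them, against 2.83 and 12.03. The part of array quality in the difference between these sham sets was not tested.

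Neutrophil sums were 26134, 94030 and 14871 on the sham 58 High arrays in the same order, 47064.5 to 74099 in 4 h High, and 36422 and 30756 in sham High. Classical monocyte sums were 23947 to 26100 in 4 h High, against 2027 and 21232 in sham High. In sham High 7 of the 11 neutrophil markers, among them Csf3r, Mmp8, Mmp9 and Stfa2l1, were not called present on either array. Stfa2l1, a stefin of neutrophils, was called higher in 4 h High by 7.48 ± 1.10, adjusted p = 0.00628 in limma. The Gapdh 3′ to 5′ ratio was 298 and 28.3 in sham High, against 2.56, 19.7 and 6.55 in 4 h High. Their part in the Ifitm1 value was not tested.

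**Figure D2:**
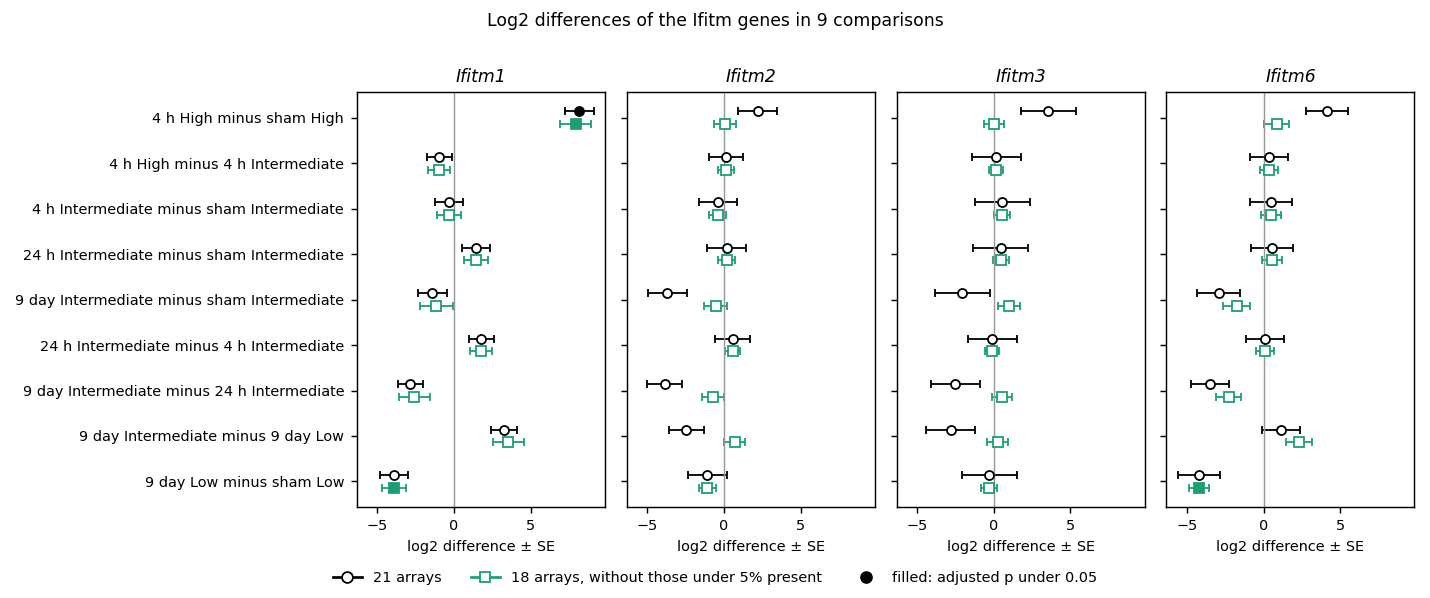
Log2 difference ± SE from limma (horizontal axis) of each Ifitm gene (4 panels) in 9 comparisons (vertical axis), with 21 arrays (black circles) and with the 18 arrays of at least 5% of probe sets present (green squares). Filled symbols have an adjusted p under 0.05: Ifitm1 in 4 h High minus sham High in both fits, and Ifitm1 and Ifitm6 in 9 day Low minus sham Low only with 18 arrays. With 18 arrays sham High and 9 day Intermediate are 1 array each, and nothing is read from the fill of their green squares. The sham values of Ifitm1 are those the family was selected on.

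Gates from the same animals were compared at 4 h and at 9 days. At 4 h Ifitm1 read 9.96, 11.52 and 11.40 in High, against 11.91, 11.24 and 12.62 in Intermediate, and the groups overlapped. The limma differences of High from Intermediate were -0.96 ± 0.83 for Ifitm1, 0.15 ± 1.13 for Ifitm2, 0.17 ± 1.61 for Ifitm3 and 0.33 ± 1.24 for Ifitm6. No member was called or had an unadjusted p under 0.05. In limma 0% of all genes were called, though 500 had an unadjusted p below 0.05.

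At 9 days Ifitm1 was the member that lay higher in Intermediate than in Low on every array. It read 12.11, 11.13 and 9.35 in 9 day Intermediate replicates 8, 9 and 13, against 6.52, 8.86 and 7.40 in 9 day Low. In limma the difference was 3.27 ± 0.83, adjusted p = 0.0673, and 99.7% of the tested genes had a lower difference. The median over all genes was -1.24, and 2 of the 3 Intermediate arrays were of low yield. With the arrays of low yield included, Ifitm1 was thus higher where most genes were lower. Without those arrays the median over all genes was -0.13. With the share of probe sets present as covariate it was 0.10. Ifitm6 differed by 1.15 ± 1.24, adjusted p = 0.603, Ifitm2 by -2.44 ± 1.13, adjusted p = 0.236, and Ifitm3 by -2.80 ± 1.61, adjusted p = 0.320, in limma. No member was called, where 0.623% of all genes were. In limma 2 members had an unadjusted p under 0.05, as did 1699 of the 8341 tested genes. Of all genes 4.39% lay higher without overlap, as Ifitm1 did.

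Without the arrays of low yield Ifitm2 and Ifitm3 turned to 0.70 and 0.24, and Ifitm1 lay at 3.53. Each rests on 1 Intermediate array and is given as an effect size only. The neutrophil sum was 37262 to 52803 in 9 day Intermediate, against 9127 to 11779 in 9 day Low. The classical monocyte sum was 4596 to 14764 in 9 day Intermediate, against 5153 to 7347 in 9 day Low. The tissue macrophage sum was 2428 to 33352 in 9 day Intermediate, against 39550 to 50220 in 9 day Low. Their part was not tested.

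Whether the effect of injury differed between gates was tested as an interaction in limma. At 4 h the difference of 4 h High from sham High exceeded that of 4 h Intermediate from sham Intermediate by 8.52 ± 1.30 for Ifitm1. This value holds the gap between sham Intermediate and sham High on which the family was selected, so it is a description, and nothing is read from its call. Of all genes 0.012% were called, and Ifitm1 was that gene. With the animal as a fixed or a random replicate block, 0 of 4 members were called. For Ifitm2, Ifitm3 and Ifitm6 the values were 2.60 ± 1.79, 3.01 ± 2.54 and 3.68 ± 1.95, with adjusted p of 0.625, 0.703 and 0.532. At 9 days the effect in Intermediate minus that in Low was 2.50 ± 1.30 for Ifitm1, adjusted p = 0.727. No member was called or had an unadjusted p under 0.05, and 0% of all genes were called in limma, though 615 had an unadjusted p below 0.05.

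Genes of the interferon response were set beside the family. A list of 36 interferon-stimulated genes without Ifitm members had 32 on the array and 30 tested. In 7 of the 9 comparisons between groups limma called none of them, while 0 to 11 had an unadjusted p under 0.05. Usp18, which cuts the ubiquitin-like ISG15 off its targets, was higher in 4 h High than in sham High by 6.69 ± 1.20, adjusted p = 0.0351. Stat2, a transcription factor of the type I interferon response, was lower in 9 day Intermediate than in 9 day Low, with a difference of -3.79 ± 0.83 and adjusted p = 0.0473. Without the arrays of low yield, where sham High and 9 day Intermediate are 1 array each, neither was called.

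In the Low gate the list's median and the differences of Ifitm1 and Ifitm6 had opposite signs. In 9 day Low minus sham Low, where these 2 genes lay at -3.90 and -4.22, the list's median was 0.53 with 20 of 30 genes above 0, beside -0.12 for all genes, and none was called. The smallest p values were those of Stat2, 2.90 ± 0.93, and Eif2ak2, a kinase activated by double-stranded RNA, 3.26 ± 1.14, with adjusted p of 0.170 and 0.213 in limma. Cxcl10, a chemokine induced by interferon, differed by 3.20 ± 1.72 and Ifit3, a binder of viral RNA complexes, by 2.28 ± 1.23, with adjusted p of 0.576 and 0.577. The summed level of the list was 15401 to 27264 in 9 day Low, against 15087 to 16771 in sham Low, and the ranges overlapped.

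In 24 h Intermediate minus sham Intermediate, where Ifitm1 lay at 1.44, the list's median was -1.26 with 22 of 30 genes below 0, beside -0.07 for all genes. The list's summed level was 9779 to 12008 in sham Intermediate, 7258 to 12936 at 4 h, 3303 to 8432 at 24 h and 1325 to 16470 at 9 days. The 24 h arrays, highest for Ifitm1, thus lay below the sham arrays in this sum. Bst2, or tetherin, differed at 24 h by -2.74 ± 1.68 and Ifit1 by -2.01 ± 1.28, with adjusted p of 0.702 and 0.723 in limma. The part of interferon in the Ifitm values was not tested in either gate.

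Of 15 interferon ligands, receptors and signalling genes on the array 12 were tested, and limma called none in the 9 comparisons; no comparison had more than 2 below an unadjusted p of 0.05. Ifnb1 and Ifng, which encode interferon beta and gamma, were not called present on any of the 21 arrays. The receptor chain Ifnar2 differed by 5.66 ± 1.48 in 24 h Intermediate minus 4 h Intermediate, adjusted p = 0.221. Socs3, a feedback inhibitor of JAK and STAT signalling, differed by 6.06 ± 1.58 in 4 h High minus sham High, adjusted p = 0.112. Irf8, a transcription factor of monocytes and macrophages, differed by -4.44 ± 1.22 in 9 day Intermediate minus 9 day Low, adjusted p = 0.0866. Without the arrays of low yield Socs3 was called higher in 4 h High than in sham High, on 1 sham High array whose spread is assumed to equal that of the other groups.

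A list of 9 genes whose proteins bind or modify IFITM proteins in mammalian cells was tested whole, and limma called none in the 9 comparisons. Up to 2 had an unadjusted p under 0.05 in a comparison. Cd81, a tetraspanin of the cell surface, differed by -5.83 ± 1.85 in 9 day Intermediate minus 9 day Low, adjusted p = 0.119. Zdhhc20, which attaches palmitate to IFITM3, differed by -2.56 ± 0.96 in 24 h Intermediate minus 4 h Intermediate, adjusted p = 0.491. Nedd4, a ubiquitin ligase that marks IFITM3 for degradation, differed by -2.28 ± 1.10 in 4 h High minus 4 h Intermediate, adjusted p = 0.834. Zmpste24, a protease reported to act with IFITM proteins, differed by 4.57 ± 2.12 in the same comparison, adjusted p = 0.825.

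**Figure D3:**
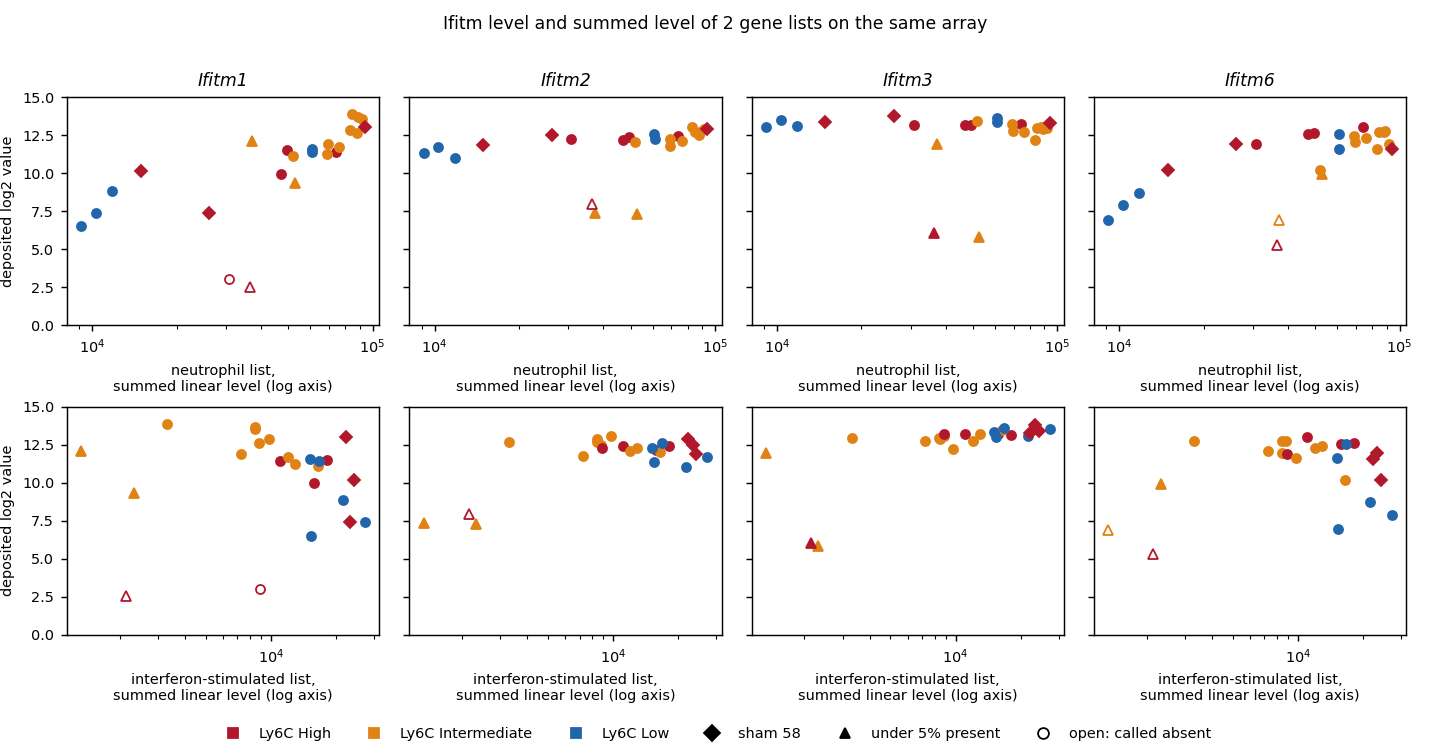
Deposited log2 value of each Ifitm gene (vertical axis, 4 columns) against the summed linear level of the neutrophil list (top row) and of the interferon-stimulated list (bottom row) on the same array, both on log axes. Each point is 1 array, coloured by gate, with diamonds for sham 58, triangles for arrays under 5% present and open symbols for calls of absent. The 9 day Low arrays (blue, 9127 to 11779 in the neutrophil list) hold low values of Ifitm1 and Ifitm6, and Ifitm3 runs level across both lists apart from the triangles.

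The genes most like each member were found by Pearson's r of log2 values over the 21 arrays, among all tested genes. Arrays share yield and gate, so r is a description with n = 21 arrays and no test. For Ifitm1 they were Csf2rb, the common beta chain of the GM-CSF and IL-3 receptors, with r = 0.89, Il1b, the cytokine interleukin 1 beta, with 0.85, and G0s2, an inhibitor of a lipase that breaks down stored fat, with 0.84. Over the 18 arrays of higher yield these were 0.87, 0.86 and 0.87, and the leading genes there were Pglyrp1 with 0.94, Arg2 with 0.93 and Acod1 with 0.90. For Ifitm6 they were Clec4e, a receptor for mycobacterial lipid, with r = 0.92, Glipr2 with 0.92 and Msrb1, a repair enzyme for oxidised methionine, with 0.91. Over 18 arrays these were 0.93, 0.93 and 0.84, and the leading genes were Trem3 with 0.95, Glipr2 and Clec4d with 0.93. The r values of Ifitm1 include its sham High values, on which the family was selected. Both enter over 21 arrays, and that of sham High replicate 2 enters over 18.

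For Ifitm2 and Ifitm3 the r of each of the 3 genes most alike was lower over the 18 arrays of higher yield. The genes most like Ifitm2 were Fpr2, a formyl peptide receptor, with r = 0.98, Lbr, the lamin B receptor, with 0.97, and Atp6v1e1, a subunit of the proton pump, with 0.97. Over 18 arrays these were 0.81, 0.64 and 0.79, and the leading genes were Srgn, a proteoglycan of secretory granules, with 0.89, and Lcn2, an iron-sequestering lipocalin, with 0.82, ahead of Fpr2. The genes most like Ifitm3 were Rpl10a, a ribosomal protein, with r = 0.99, Tgfbi, a secreted matrix protein, with 0.97 and Capza2, an actin capping subunit, with 0.97. Over 18 arrays Rpl10a was at 0.80, Tgfbi at 0.32 and Capza2 at 0.28. The leading genes there were Psme1, a proteasome activator subunit, with 0.82, Rpl10a, and Psmb10, an immunoproteasome subunit, with 0.78.

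The members were not uniformly alike. Over 21 arrays r was 0.79 for Ifitm2 with Ifitm3, 0.73 for Ifitm2 with Ifitm6, 0.61 for Ifitm1 with Ifitm6, 0.49 for Ifitm3 with Ifitm6, 0.41 for Ifitm1 with Ifitm3 and 0.40 for Ifitm1 with Ifitm2. Over the 18 arrays of higher yield Ifitm2 with Ifitm6 was at 0.75, Ifitm1 with Ifitm2 at 0.58 and Ifitm1 with Ifitm6 at 0.56. Ifitm3 was at -0.33 with Ifitm1, -0.27 with Ifitm2 and -0.16 with Ifitm6. Without the arrays of low yield, Ifitm3 was thus the member whose values did not run with those of the others. On these 18 arrays it lay only between 12.21 and 13.63. Its r with the share of probe sets present was 0.50, against -0.27 for Ifitm1, -0.40 for Ifitm2 and -0.56 for Ifitm6. The part of yield in these r values was not tested.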

How the data were processed

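Gene expression was measured on 25 Affymetrix arrays, of which 21 in 8 groups entered the model; 3 sham 58 arrays and 1 array of reference RNA stayed out. The deposited log2 values were made by the authors with RMA and Affymetrix Expression Console, per the submitters' processing notes, which give no versions. The deposited signal intensities are on a linear scale, and detection calls (P, M or A) were deposited beside them; how the authors made both is not stated in those notes. No value column was left unassigned. For 4 h High replicate 30 a second description line names 9 days; its other labels name 4 h, and it was used as such.

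Of 45101 probe sets 34958 had 1 gene in the platform annotation, covering 18194 genes, 932 had several and 9211 none. Tested genes had a P call on 2 or more arrays of some group. A group-means model was fitted with limma 3.58.1 in R 4.3.3 (lmFit, eBayes; 13 residual and 3.93 prior degrees of freedom), two-sided, with Benjamini-Hochberg adjustment over the 8341 genes tested and calls at adjusted p under 0.05. The fit was tested on simulated data. P-values measure the spread between these arrays, whose number limits the precision. "Arrays of low yield" have under 5% of probe sets called P.

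The members and gene lists were chosen with earlier results of these data known. Named are the 4 members, other Ifitm genes, the 3 genes most correlated with each member and, from each list, up to 4 genes of smallest p in a comparison. Lists were interferon-stimulated genes, interferon ligands, receptors and signalling, proteins known to bind or modify IFITM proteins, and markers of neutrophils, classical monocytes, tissue macrophages, dendritic cells, T, NK and B cells, endothelial cells, kidney tubule, fibroblasts and mural cells, and erythrocytes. Summed levels add 2 to the power of each log2 value.

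Gates with the same animal number come from 1 animal per the labels. The residuals of such arrays correlated at -0.07 to 0.06, and the animal was a block only in alternatives. Alternatives changed the values (log2(signal + 1), quantile normalization, centring by array medians), the genes (no filter, P on all arrays of a group, averaged probe sets), the arrays (only the groups compared, none of low yield, each left out in turn, sham High with the averaged sham 58 arrays as a further array) or the model (array weights, the share present as a covariate, a variance trend and robust prior, a fixed or a random block for the animal). Sequences are RefSeq's (GRCm38.p6).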

Additional observations from a re-analysis of the deposited data

Results flagged for a closer look

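The effect of injury at 4 h differed between the High and Intermediate gates for Ifitm1 by 8.52 ± 1.30 (log2 ± SE), the interaction term in limma. It holds the sham difference on which the family was selected and is not independent of that choice. Ifitm5, near background elsewhere, was called present at 7.49 on 4 h Intermediate replicate 30. Ifitm10 was called present at 7.04 on 9 day Intermediate replicate 9. The sham 58 High arrays, which entered only the alternative that adds their mean to sham High, held values above both sham High arrays: Ifitm1 at 7.41, 13.01 and 10.15 on arrays 1 to 3, Ifitm3 at 13.77, 13.30 and 13.38, Ifitm2 at 12.51 and 12.89 on arrays 1 and 2, and Ifitm6 at 11.95 on array 1. No cause was tested for any of these.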

How the results depend on the processing

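The number of the 4 members called was the same under every alternative in 4 h High minus 4 h Intermediate, 4 h Intermediate minus sham, 24 h Intermediate minus sham or 4 h, and the difference of effects at 9 days (0 each). In 9 day Intermediate minus 9 day Low it was 0, but 1 with quantile normalization, 1 with the mean of probe sets, 3 with array weights and 0 to 2 with 1 array left out (2 without 9 day Intermediate replicate 9). In 9 day Intermediate minus sham it was 0, but 1 with array weights and 0 to 1 with 1 array left out. In 9 day minus 24 h Intermediate it was 0, but 3 with array weights and 0 to 1 with 1 array left out; in both, the call came without 9 day Intermediate replicate 9. In 9 day Low minus sham Low it was 0, but 1 with no filter, 1 with the mean of probe sets, 2 with array weights, 1 with the share present as covariate, 2 without arrays of low yield and 0 to 1 with 1 array left out (1 without 9 day Low replicate 9); the adjusted p of Ifitm1 ranged from 0.0198 to 0.373 over its alternatives. In 4 h High minus sham High it was 1, but 0 with signals, with only the groups compared and with sham 58 added, and 1 to 3 with 1 array left out (3 without sham High replicate 2). For the difference of effects at 4 h it was 1, but 0 with signals, P on every array of a group, only the groups compared, array weights, the covariate, the variance trend, either replicate block and sham 58 added, and 0 to 2 with 1 array left out; this count includes Ifitm1, whose sham values chose the family. With the animal as a fixed replicate block, which could not be fitted between times, Ifitm1 had adjusted p = 0.161 in 9 day Intermediate minus 9 day Low, uncalled with or without it; either block removed the Ifitm1 call in the difference of effects at 4 h and changed no other member's call. The causes were not tested.

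Directions turned only for differences that were not called with all 21 arrays. With signals these were Ifitm1 and Ifitm2 in 4 h Intermediate minus sham (0.33, 0.23), Ifitm2, Ifitm3 and Ifitm6 in 4 h High minus Intermediate (-0.296, -0.29, -0.0485) and Ifitm6 in 24 h minus 4 h (-0.0353). With the covariate they were Ifitm2, Ifitm3 and Ifitm6 in 4 h High minus Intermediate (-0.37, -0.39, -0.0818), Ifitm2 in 4 h Intermediate minus sham (0.40), Ifitm2 and Ifitm3 in 9 day Intermediate minus Low (0.77, 0.63) and Ifitm3 in 9 day Low minus sham (0.0304). Without arrays of low yield they were Ifitm2 in 9 day Intermediate minus Low (0.70) and the difference of effects at 9 days (0.56), and Ifitm3 in 4 h High minus sham (-0.00347), 9 day Intermediate minus 24 h (0.53), Low (0.24) and sham (0.98) and the differences of effects at 4 h (-0.55) and 9 days (1.27). With 1 array left out they were Ifitm1 in 4 h Intermediate minus sham (-0.92 to 0.23), Ifitm2 in 4 h High minus Intermediate (-0.0567 to 0.31), 4 h Intermediate minus sham (-0.86 to 0.0829) and 24 h minus sham (-0.29 to 0.65), Ifitm6 in 24 h minus 4 h (-0.105 to 0.332), and Ifitm3 in 24 h minus 4 h (-0.22 to 0.00537), 9 day Intermediate minus sham (-3.58 to 0.23), 4 h High minus sham (-0.00347 to 7.13, the higher one called without sham High replicate 2) and the differences of effects at 4 h (-0.55 to 6.58) and 9 days (-3.29 to 0.52). Every member has 1 probe set, so no other probe set could be tried. With signals the median of all genes in 4 h High minus sham High was -0.68, in place of 0.74, and Ifitm1 lay at 7.14. Counts called over all genes moved as well. In 9 day Intermediate minus Low 52 became 3 with the fixed replicate block and 1759 with array weights. In 9 day Low minus sham Low the 83 lay between 14 and 302 over the settings that leave out no array in turn.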
